A study of Mus musculus with 8 samples.

Results

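The loci of Dusp6 and Dusp5, genes for phosphatases that switch off the kinase ERK, were followed across WT and Pggt1b-deficient regulatory T (Treg) cells by ATAC-seq, an assay of chromatin accessibility. The members are all open sites whose midpoint lies at 98.6 to 98.8 Mb of chromosome 10 (the Dusp6 window, 58 sites over 200 kb) or at 53.56 to 53.68 Mb of chromosome 19 (the Dusp5 window, 29 sites over 120 kb), on the mouse build mm9. Together these are 87 of the 79758 sites in the deposited table. The sites follow from position alone, but the 2 loci were chosen by accessibility values of these same libraries, seen in an earlier look at them. Values at the members are therefore a description, and each p-value belongs to a fit across all sites.

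Accessibility was compared among 4 groups of 2 libraries each: WT cTreg, WT eTreg, Pggt1b-deficient cTreg and Pggt1b-deficient eTreg cells. By common usage cTreg cells are central and eTreg cells effector Treg cells. All were sorted directly from spleen and lymph nodes of mixed bone marrow chimeras, hosts in which marrow from several donors develops side by side. Pggt1b encodes the catalytic subunit of the enzyme that adds a geranylgeranyl lipid to small GTPases, a step of protein prenylation. The sources used here do not give the promoter that drove the deletion, the ages of the animals or the number of chimeras behind each library, so p-values measure the spread between libraries, which may be technical.

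ERK is the last kinase of the RAS, RAF and MEK cascade and in T cells is activated by the antigen receptor. DUSP6 (also MKP-3) acts in the cytoplasm and DUSP5 in the nucleus. Both remove phosphate from the threonine and the tyrosine of the ERK activation loop, and both genes are themselves induced by ERK signalling, so that they form a negative feedback. Transcription factors that ERK acts through include the ETS family and, with it, the serum response factor, which binds the CArG box.

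For orientation, the 250 bases before the annotated start of each gene are shown, because these hold elements through which ERK signals are read. They are credited to RefSeq on the build GRCm38.p6, and both of the 2 members were matched. That build differs from mm9, so their coordinates cannot be set beside those of the sites, and which site holds a gene start, exon or intron was not analysed here. Capitals mark matches, on either strand, to the CArG box, to CGGAA (an ETS core), to TGANTCA (AP-1) or to TGACG (CRE core); the motifs were chosen after the sequences were seen.
Dusp6 promoter, chr10:99262981-99263230, plus strand: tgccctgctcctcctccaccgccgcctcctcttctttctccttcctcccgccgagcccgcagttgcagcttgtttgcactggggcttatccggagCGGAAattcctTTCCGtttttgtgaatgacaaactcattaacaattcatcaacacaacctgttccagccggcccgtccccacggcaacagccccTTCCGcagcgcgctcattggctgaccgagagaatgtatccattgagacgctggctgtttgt
Dusp5 promoter, chr19:53528895-53529144, plus strand: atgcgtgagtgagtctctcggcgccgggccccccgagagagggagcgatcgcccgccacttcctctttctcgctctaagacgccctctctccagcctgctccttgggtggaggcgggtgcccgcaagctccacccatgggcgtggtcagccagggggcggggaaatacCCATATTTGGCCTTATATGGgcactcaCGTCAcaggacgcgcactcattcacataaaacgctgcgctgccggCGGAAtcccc

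The Dusp5 sequence holds 2 adjoining CArG boxes, which begin 82 and 72 bases before the start, 1 CGGAA and 1 TGACG match. The Dusp6 sequence holds 3 CGGAA matches, which begin 155, 144 and 61 bases before the start, and no match to the other motifs. No match overlaps another motif. Of 32526 RefSeq promoter sequences of the same length, 1.48% held a CArG box and 0.0184% held at least 2, 25.3% held CGGAA and 7.47% held it at least 2 times, 6.73% held TGANTCA and 17.9% held TGACG. A match describes letters and is no measure of binding. In the order of protein-coding genes on GRCm38.p6, Dusp6 lies between Galnt4 and Csl, and Dusp5 between Smndc1 and Smc3, so a site of a window need not belong to the phosphatase gene.

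Library totals ran from 1664702 to 14974253 counts, and both Pggt1b-deficient eTreg libraries (2255214 and 1664702) lay far below the other 6 (7153991 or more). Levels are given in CPM, counts scaled to a fixed library size with TMM factors, which correct library sizes for composition. Of the members, 54 of 58 in the Dusp6 window and 27 of 29 in the Dusp5 window passed the filter on low counts and were tested. The 6 others reached at most 12 counts in any library. Sites with an adjusted p under 0.05 are called (edgeR quasi-likelihood test, Benjamini-Hochberg over 75352 sites, 2 against 2 libraries). In sorted bulk cells, fewer cells with an open site and less opening per cell cannot be told apart. Marker loci of Treg cells were not located on mm9, so the sort was not checked here.

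Summed over a window, accessibility was lower in eTreg than in cTreg cells of both genotypes. The Dusp6 window summed to 859.7 and 929.5 CPM in WT cTreg, 679.5 and 659.2 in WT eTreg, 901.2 and 878.0 in Pggt1b-deficient cTreg, and 725.2 and 702.8 in Pggt1b-deficient eTreg libraries. From high to low, the group means were 895 ± 49.3 CPM (SD, n = 2) in WT cTreg, 890 ± 16.4 in Pggt1b-deficient cTreg, 714 ± 15.8 in Pggt1b-deficient eTreg and 669 ± 14.3 in WT eTreg cells. The cTreg groups overlapped, whereas each library of both eTreg groups lay below every cTreg library, and the Pggt1b-deficient eTreg libraries lay above the WT eTreg libraries (log2 ratio 0.093). In the middle 50% of the window that last ratio turned to -0.018, and the WT eTreg against cTreg ratio was -0.27 in place of -0.42. The WT eTreg mean was 74.8% of the WT cTreg mean, and the Pggt1b-deficient eTreg mean was 80.3% of its cTreg mean.

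Levels of the Dusp5 window were lower, with 267.1 and 263.6 CPM in WT cTreg, 222.1 and 226.0 in WT eTreg, 288.6 and 285.7 in Pggt1b-deficient cTreg, and 244.9 and 233.5 in Pggt1b-deficient eTreg libraries. Here the order was Pggt1b-deficient cTreg (287 ± 2.05 CPM, SD, n = 2), WT cTreg (265 ± 2.47), Pggt1b-deficient eTreg (239 ± 8.05) and WT eTreg (224 ± 2.80), with no overlap between neighbours. The eTreg mean was 84.4% of the cTreg mean in the WT and 83.3% in Pggt1b-deficient cells. With 2 libraries a group, the smallest p of an exact permutation test is 0.33, so the sums were not tested. Across the 8 libraries, the log2 sums of both windows correlated at r = 0.926 (Pearson), a description over libraries that share scaling and fall into subsets.

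**Figure D1:**
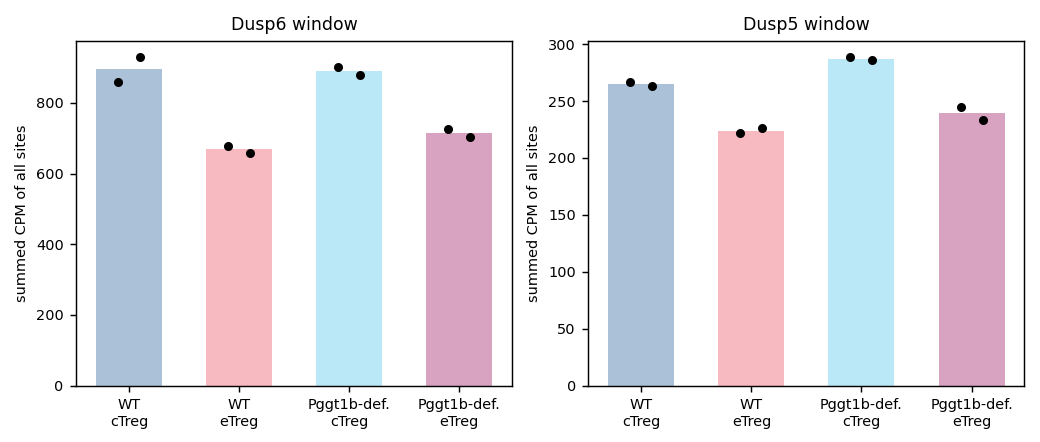
Summed CPM of all sites of the Dusp6 window (left, 58 sites) and the Dusp5 window (right, 29 sites) in the 4 groups; bars are means, dots the 2 libraries. In the Dusp6 window every eTreg library (659.2 to 725.2 CPM) sits below every cTreg library (859.7 to 929.5 CPM).

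Few sites carried much of these sums. In the Dusp6 window the 3 strongest sites held 36.9% of the mean signal, while 32 of 58 sites were under 5 CPM. In the Dusp5 window the 3 strongest held 47.0%, and 17 of 29 sites were under 5 CPM. The strongest site of each window serves below as its zero point, and other sites are named by the distance of their midpoints from it, negative toward lower coordinates.

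The strongest site of the Dusp6 window, chr10:98725334-98725993 (659 bp), had 115 and 131 CPM in WT cTreg, 124 and 117 in WT eTreg, 100 and 97.7 in Pggt1b-deficient cTreg, and 105 and 105 in Pggt1b-deficient eTreg libraries. WT cTreg and WT eTreg libraries overlapped there, and their log2 fold change was -0.03 ± 0.08 (SE; 0.835 as adjusted p, edgeR). Both Pggt1b-deficient cTreg libraries lay below both WT cTreg libraries, a fall of -0.31 ± 0.08 (edgeR adjusted p = 0.0365). That call ended in 10 of 19 alternative ways of processing, among them DESeq2 (adjusted p = 0.0773), a block on the replicate number (0.0529), and the omission of any 1 of the 6 libraries outside Pggt1b-deficient eTreg (0.0534 to 0.594). Its neighbour at -1.1 kb, chr10:98723935-98725149 (1214 bp), had 96.2 and 105 CPM in WT cTreg, 86.0 and 81.3 in WT eTreg, 103 and 98.7 in Pggt1b-deficient cTreg, and 100 and 81.2 in Pggt1b-deficient eTreg libraries. Its log2 fold change between WT eTreg and WT cTreg cells was -0.27 ± 0.09 (edgeR adjusted p = 0.0179), a small fall. The call was lost without WT cTreg replicate 2 (log2 fold change -0.20) or WT eTreg replicate 2 (-0.24) and with DESeq2 (adjusted p = 0.0602). It was also lost with all libraries thinned at random to the smallest total (edgeR adjusted p = 0.277).

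Across the Dusp6 window, WT eTreg cells were less accessible than WT cTreg cells at most tested sites. Of 54 tested sites, 36 (66.7%) were lower and 3 (5.56%) higher, against backgrounds of 14.9% lower and 13.8% higher among all tested sites (edgeR adjusted p under 0.05). The median log2 fold change was -0.90 over the tested sites of the window and 0.0025 over all tested sites, and called decreases ran from -3.04 to -0.27. The number called dropped from 39 when any 1 WT library was omitted, which leaves 1 library in a group. The log2 ratio of the window sums then ran from -0.49 to -0.36. The number called was 26 with DESeq2 and 27 with only sites of a mean count of at least 20. It dropped to 10 with all libraries thinned at random to the smallest total. Without both Pggt1b-deficient eTreg libraries, the shallow ones, it was 40.

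The decreases were spread along the window. By 50 kb segment from low to high coordinate, 11 of 14, 9 of 19, 14 of 19 and 2 of 2 tested sites were lower. They were found in weak and strong sites: 19 of 28 tested sites under 5 CPM were lower (their 28 values had a median of -1.68 on the log2 scale), and 7 of 10 sites of 20 CPM or more were lower (median of the 10, -0.47).

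**Figure D2:**
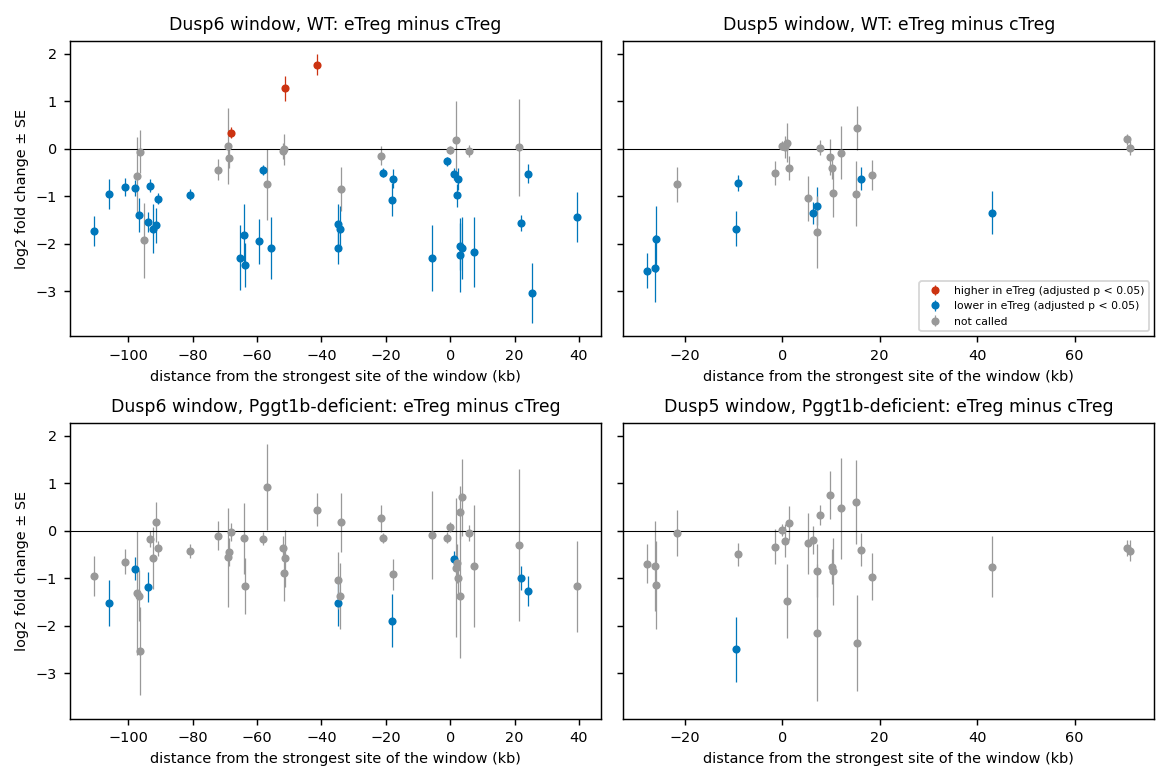
Log2 fold change (± SE) of eTreg against cTreg cells at tested sites, by distance in kb from the strongest site, for WT (top) and Pggt1b-deficient cells (bottom) in the Dusp6 (left) and Dusp5 window (right). 5 Dusp6 sites without counts in Pggt1b-deficient eTreg cells are left out below; the 3 red points are the sites higher in WT eTreg cells.

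The decrease with the smallest p lay at 21.9 kb, chr10:98747257-98747902 (645 bp). It had 27.9 and 23.8 CPM in WT cTreg, 8.80 and 8.69 in WT eTreg, 26 and 21.5 in Pggt1b-deficient cTreg, and 10.8 and 13.6 in Pggt1b-deficient eTreg libraries. eTreg libraries of both genotypes were below all cTreg libraries. The log2 fold change was -1.56 ± 0.17 in the WT (edgeR adjusted p = 3.37e-09) and -0.99 ± 0.25 in Pggt1b-deficient cells (0.00862). The latter call was lost without Pggt1b-deficient cTreg replicate 1 (log2 fold change -0.85) or Pggt1b-deficient eTreg replicate 1 (-0.82). It was also lost after thinning (edgeR adjusted p = 0.124) and with limma voom with a weight per group (adjusted p = 0.0575, called group weights from here on).

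A similar pair of decreases was seen at -94.0 kb, chr10:98631569-98631727 (158 bp), with 14.4 and 15.3 CPM in WT cTreg, 5.47 and 4.75 in WT eTreg, 16.0 and 16.6 in Pggt1b-deficient cTreg, and 6.28 and 8.30 in Pggt1b-deficient eTreg libraries. The subsets did not overlap in either genotype. The log2 fold change was -1.55 ± 0.22 in the WT (edgeR adjusted p = 4.35e-07) and -1.18 ± 0.31 in Pggt1b-deficient cells (0.0113). The latter call was lost without Pggt1b-deficient eTreg replicate 1 (log2 fold change -0.99), with group weights (adjusted p = 0.0763) and after thinning (edgeR adjusted p = 0.0526). At -34.7 kb, chr10:98690799-98691057 (258 bp), levels were lower, with 5.96 and 6.18 CPM in WT cTreg, 1.48 and 1.36 in WT eTreg, 8.19 and 6.35 in Pggt1b-deficient cTreg, and 2.69 and 2.37 in Pggt1b-deficient eTreg libraries. Its WT difference was -2.09 ± 0.34 (edgeR adjusted p = 8.04e-06), and its Pggt1b-deficient difference of -1.51 ± 0.49 (0.0428) was lost in 11 of 17 alternatives.

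At these 3 sites and at those at -90.7, -93.2, -80.8 and -20.8 kb, both Pggt1b-deficient eTreg libraries were above both WT eTreg libraries. At the latter 4 this difference was called. These sites were named for small p with low WT eTreg values, so this order is partly built in, and its share over all sites was not counted. Other WT decreases, at -65.2, -59.3, -55.7 and 25.5 kb, had 9, 24, 10 and 8 counts in WT eTreg and 0 in Pggt1b-deficient eTreg libraries. At -90.7 kb, chr10:98634567-98635379 (812 bp) had 41.9 and 46.3 CPM in WT cTreg, 21.9 and 20.8 in WT eTreg, 47.9 and 42.8 in Pggt1b-deficient cTreg, and 35.0 and 35.6 in Pggt1b-deficient eTreg libraries. The Pggt1b-deficient eTreg level lay between those of WT eTreg and of both cTreg groups. The log2 fold change of eTreg against cTreg was -1.05 ± 0.12 in the WT (edgeR adjusted p = 8.85e-09) and -0.37 ± 0.16 in Pggt1b-deficient cells (0.147), and Pggt1b-deficient against WT eTreg cells gave 0.73 ± 0.17 (0.00309). The last call held in all 18 alternatives (adjusted p 0.0016 to 0.0349).

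At -93.2 kb, chr10:98632310-98632703 (393 bp), the values were 34.9 and 37.9 CPM in WT cTreg, 24.5 and 18.3 in WT eTreg, 39.1 and 37.7 in Pggt1b-deficient cTreg, and 34.1 and 34.4 in Pggt1b-deficient eTreg libraries. Levels of WT eTreg stood below the other 3 groups, by -0.78 ± 0.13 against WT cTreg (edgeR adjusted p = 1.65e-05), while Pggt1b-deficient eTreg was higher than WT eTreg by 0.69 ± 0.18 (0.00917; 0.145 without WT eTreg replicate 2 and 0.0701 without Pggt1b-deficient eTreg replicate 1). At -80.8 kb, chr10:98644561-98645100 (539 bp), they were 50.0 and 51.1 CPM in WT cTreg, 27.8 and 24.1 in WT eTreg, 47.6 and 50.8 in Pggt1b-deficient cTreg, and 38.6 and 34.4 in Pggt1b-deficient eTreg libraries. No library of either eTreg group reached a cTreg library there. The WT difference was -0.97 ± 0.11 (edgeR adjusted p = 1.6e-08), and the eTreg genotype difference of 0.51 ± 0.16 (0.0338) was lost in 6 of 18 alternatives, with adjusted p up to 0.258 without Pggt1b-deficient eTreg replicate 1.

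A stronger site lay at -20.8 kb. This site, chr10:98704419-98705373 (954 bp), had 85.7 and 96.4 CPM in WT cTreg, 62.6 and 66 in WT eTreg, 101 and 99.8 in Pggt1b-deficient cTreg, and 96.0 and 85.3 in Pggt1b-deficient eTreg libraries. Only WT eTreg was low: its libraries lay below all 6 others, and the Pggt1b-deficient eTreg libraries fell within the range of the WT cTreg and Pggt1b-deficient cTreg libraries except for 85.3 CPM, just below the lowest of these. The WT difference was -0.50 ± 0.09 (edgeR adjusted p = 3.12e-05), and Pggt1b-deficient eTreg exceeded WT eTreg by 0.50 ± 0.11 (0.00201; 0.0804 without Pggt1b-deficient eTreg replicate 1).

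3 sites of the Dusp6 window went the other way and were more accessible in WT eTreg than in WT cTreg cells. The first, at -41.3 kb, chr10:98684254-98684446 (192 bp), had 5.32 and 7.05 CPM in WT cTreg, 20.1 and 22.0 in WT eTreg, 5.16 and 9.38 in Pggt1b-deficient cTreg, and 8.07 and 11.9 in Pggt1b-deficient eTreg libraries. Both libraries of WT eTreg exceeded all 6 others, and both Pggt1b-deficient eTreg libraries lay above both WT cTreg libraries. The rise was 1.77 ± 0.22 in the WT (edgeR adjusted p = 6.46e-08), against 0.45 ± 0.35 in Pggt1b-deficient cells (0.466), and Pggt1b-deficient eTreg against WT eTreg gave -1.11 ± 0.30 (0.0121; 0.0782 without WT eTreg replicate 2 and 0.173 without Pggt1b-deficient eTreg replicate 1).

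Both remaining sites were chosen after their values were seen. At -51.3 kb, chr10:98674281-98674405 (124 bp) had 4.27 and 5.78 CPM in WT cTreg, 10.2 and 14.0 in WT eTreg, 2.36 and 3.86 in Pggt1b-deficient cTreg, and 1.79 and 2.37 in Pggt1b-deficient eTreg libraries. It was highest in WT eTreg and low in all 4 Pggt1b-deficient libraries, each of which lay below every WT library. The WT rise was 1.27 ± 0.27 (edgeR adjusted p = 0.00027; 0.628 after thinning), the Pggt1b-deficient difference -0.58 ± 0.60 (0.607), and the eTreg genotype difference -2.56 ± 0.48 (0.000291), which held in all 18 alternatives (up to 0.0227).

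At -68.1 kb, chr10:98657437-98657728 (291 bp) had 33.3 and 38.8 CPM in WT cTreg, 48.5 and 43.0 in WT eTreg, 25.7 and 27.7 in Pggt1b-deficient cTreg, and 30.9 and 20.7 in Pggt1b-deficient eTreg libraries. Here too all 4 Pggt1b-deficient libraries were below all 4 WT libraries. The WT rise was small, 0.34 ± 0.12 (edgeR adjusted p = 0.0349), and was lost in 7 of 19 alternatives, among them the omission of any 1 of the 4 WT libraries (0.0539 to 0.408). Pggt1b-deficient eTreg cells were lower than WT eTreg cells by -0.79 ± 0.18 (edgeR adjusted p = 0.00243; 0.0597 without Pggt1b-deficient eTreg replicate 2), and the cTreg genotype difference was -0.43 ± 0.14 (0.0836).

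**Figure D3:**
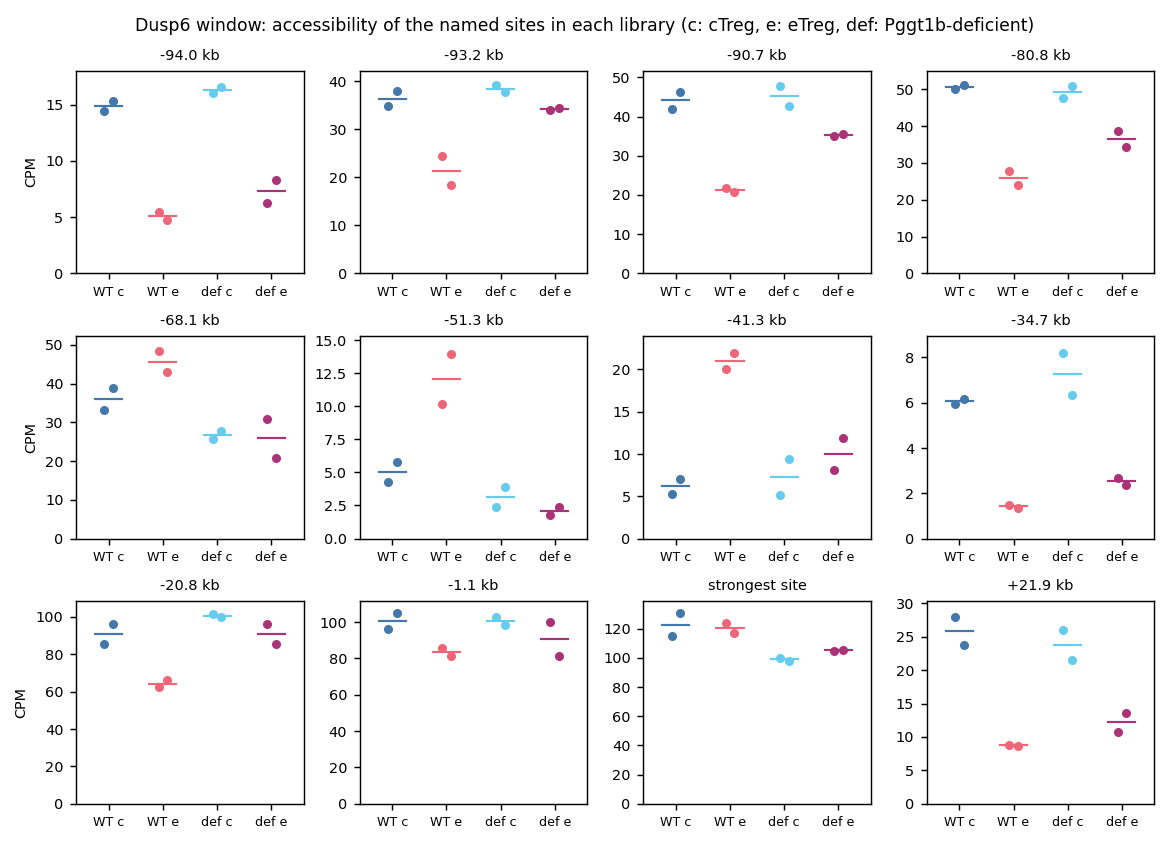
CPM of 12 sites of the Dusp6 window in each library (dots; lines are means of 2), titled by distance from the strongest site; -68.1 and -51.3 kb were added after their values were seen. WT eTreg (WT e) is lowest at -90.7 kb (20.8 and 21.9 CPM) and highest at -41.3 kb (20.1 and 22.0 CPM).

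The Dusp5 window showed fewer calls. Of 27 tested sites, 9 (33.3%) were lower in WT eTreg than in WT cTreg cells, beside the background of 14.9%, and none was higher, beside 13.8% (edgeR; 0 higher also at an unadjusted p under 0.05, with DESeq2 and with group weights). Over all 75352 tested sites, 14004 were higher at an unadjusted p under 0.05 (edgeR). The median log2 fold change over the tested sites of the window was -0.63. By 40 kb segment from low to high coordinate, 5 of 6, 3 of 18 and 1 of 3 tested sites were lower. The count dropped to 5 without WT cTreg replicate 1, WT cTreg replicate 2 or WT eTreg replicate 1, to 4 without WT eTreg replicate 2, to 5 with DESeq2 and to 1 after thinning, and it was 10 without both Pggt1b-deficient eTreg libraries.

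The strongest Dusp5 site, chr19:53603337-53604029 (692 bp), was called in no contrast. It had 53.6 and 55.8 CPM in WT cTreg, 56.2 and 58.3 in WT eTreg, 59.9 and 64.2 in Pggt1b-deficient cTreg, and 63.2 and 61.6 in Pggt1b-deficient eTreg libraries. The libraries of both Pggt1b-deficient groups lay above those of the WT, by 0.18 ± 0.10 in cTreg (edgeR adjusted p = 0.444) and 0.13 ± 0.12 in eTreg cells (0.572), and the WT subset difference was 0.07 ± 0.10 (0.662).

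The decrease with the smallest p lay at -27.7 kb, chr19:53575857-53576022 (165 bp). It had 7.01 and 6.89 CPM in WT cTreg, 0.649 and 1.56 in WT eTreg, 12.2 and 7.59 in Pggt1b-deficient cTreg, and 4.48 and 8.30 in Pggt1b-deficient eTreg libraries. Only WT eTreg was low, whereas the Pggt1b-deficient eTreg libraries spanned the WT cTreg values. The WT difference was -2.57 ± 0.37 (edgeR adjusted p = 6.34e-07; 0.0806 after thinning), the Pggt1b-deficient difference -0.69 ± 0.41 (0.307), and Pggt1b-deficient eTreg exceeded WT eTreg by 2.40 ± 0.52 (0.00148; 0.0534 without Pggt1b-deficient eTreg replicate 2).

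At 6.4 kb, chr19:53609993-53610150 (157 bp) had 15.5 and 13.6 CPM in WT cTreg, 4.45 and 6.72 in WT eTreg, 17.9 and 10.9 in Pggt1b-deficient cTreg, and 12.1 and 13.6 in Pggt1b-deficient eTreg libraries. Again WT eTreg lay below the other 6 libraries. The WT difference was -1.35 ± 0.23 (edgeR adjusted p = 1.7e-05), and the eTreg genotype difference 1.17 ± 0.33 (0.0145), lost without WT eTreg replicate 1 (0.109), Pggt1b-deficient eTreg replicate 1 (0.0655) or Pggt1b-deficient eTreg replicate 2 (0.073).

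Both eTreg groups were low at -9.5 kb, chr19:53594094-53594293 (199 bp), with 5.40 and 5.23 CPM in WT cTreg, 1.67 and 1.63 in WT eTreg, 5.27 and 6.49 in Pggt1b-deficient cTreg, and 0 and 2.37 in Pggt1b-deficient eTreg libraries. The WT difference was -1.68 ± 0.38 (edgeR adjusted p = 0.000618). In Pggt1b-deficient cells the level fell 5.7-fold (95% Clopper-Pearson interval 1.49 to 48.4, from 94 counts in cTreg and 4 in eTreg, with every 2 counts as 1 observation, for counting error only). Its edgeR adjusted p was 0.016, a call lost without Pggt1b-deficient eTreg replicate 1 (log2 fold change -1.31) or Pggt1b-deficient cTreg replicate 2 (-2.36). Group weights (adjusted p = 0.0695) and the compared libraries alone (edgeR adjusted p = 0.0745) also ended the call at this site. Near it, at -9.0 kb, chr19:53594489-53594817 (328 bp) had 20.9 and 21.5 CPM in WT cTreg, 12.0 and 13.6 in WT eTreg, 24.7 and 20 in Pggt1b-deficient cTreg, and 11.7 and 21.3 in Pggt1b-deficient eTreg libraries. Its Pggt1b-deficient eTreg libraries reached from the WT eTreg to the cTreg levels, and the WT difference was -0.73 ± 0.18 (edgeR adjusted p = 0.00144; 0.224 after thinning).

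Weak sites made up the rest of the named decreases. At -26.1 kb, chr19:53577574-53577656 (82 bp) had 1.61 and 2.14 CPM in WT cTreg, 0.371 and 0.272 in WT eTreg, 1.46 and 1.93 in Pggt1b-deficient cTreg, and 1.79 and 0 in Pggt1b-deficient eTreg libraries (WT log2 fold change -2.52 ± 0.70, edgeR adjusted p = 0.00558; 0.082 without WT cTreg replicate 2 and 0.0819 without WT eTreg replicate 2). At 7.2 kb, chr19:53610893-53610939 (46 bp) had 3.70 and 3.41 CPM in WT cTreg, 1.48 and 1.56 in WT eTreg, 4.49 and 4.55 in Pggt1b-deficient cTreg, and 3.59 and 1.19 in Pggt1b-deficient eTreg libraries (-1.21 ± 0.40, edgeR adjusted p = 0.0183). That call was lost when any 1 WT library was omitted (log2 fold change -1.27 to -1.17) and with DESeq2 (adjusted p = 0.0822). At 43.0 kb, chr19:53646691-53646761 (70 bp) had 4.19 and 2.38 CPM in WT cTreg, 1.11 and 1.43 in WT eTreg, 2.47 and 4.55 in Pggt1b-deficient cTreg, and 1.79 and 2.37 in Pggt1b-deficient eTreg libraries (-1.34 ± 0.44, edgeR adjusted p = 0.0197). That call was lost without WT cTreg replicate 1 (log2 fold change -0.90), WT eTreg replicate 1 (-1.19) or WT eTreg replicate 2 (-1.55), and with DESeq2 (adjusted p = 0.0981). At these 3 sites WT eTreg libraries lay below all WT and Pggt1b-deficient cTreg libraries. The 2 Pggt1b-deficient eTreg libraries disagreed at -26.1 kb (1.79 and 0 CPM) and at 7.2 kb (3.59 and 1.19 CPM).

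2 strong sites at the high end of the Dusp5 window differed from this pattern. At 70.8 kb, chr19:53674332-53674686 (354 bp) had 39.6 and 39.4 CPM in WT cTreg, 46.2 and 44.5 in WT eTreg, 39.0 and 41.8 in Pggt1b-deficient cTreg, and 36.8 and 24.9 in Pggt1b-deficient eTreg libraries. Pggt1b-deficient eTreg was lower than WT eTreg by -0.52 ± 0.16 (edgeR adjusted p = 0.0286), a call lost in 8 of 18 alternatives and resting on the library with 24.9 CPM (0.285 without Pggt1b-deficient eTreg replicate 2; 0.096 without WT eTreg replicate 1 and 0.0776 without WT eTreg replicate 2). The adjacent site at 71.4 kb, chr19:53674817-53675446 (629 bp), had 21.9 and 21.7 CPM in WT cTreg, 21.7 and 22.3 in WT eTreg, 24.1 and 24.2 in Pggt1b-deficient cTreg, and 22.0 and 13.0 in Pggt1b-deficient eTreg libraries, and was not called, with the same library lowest.

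**Figure D4:**
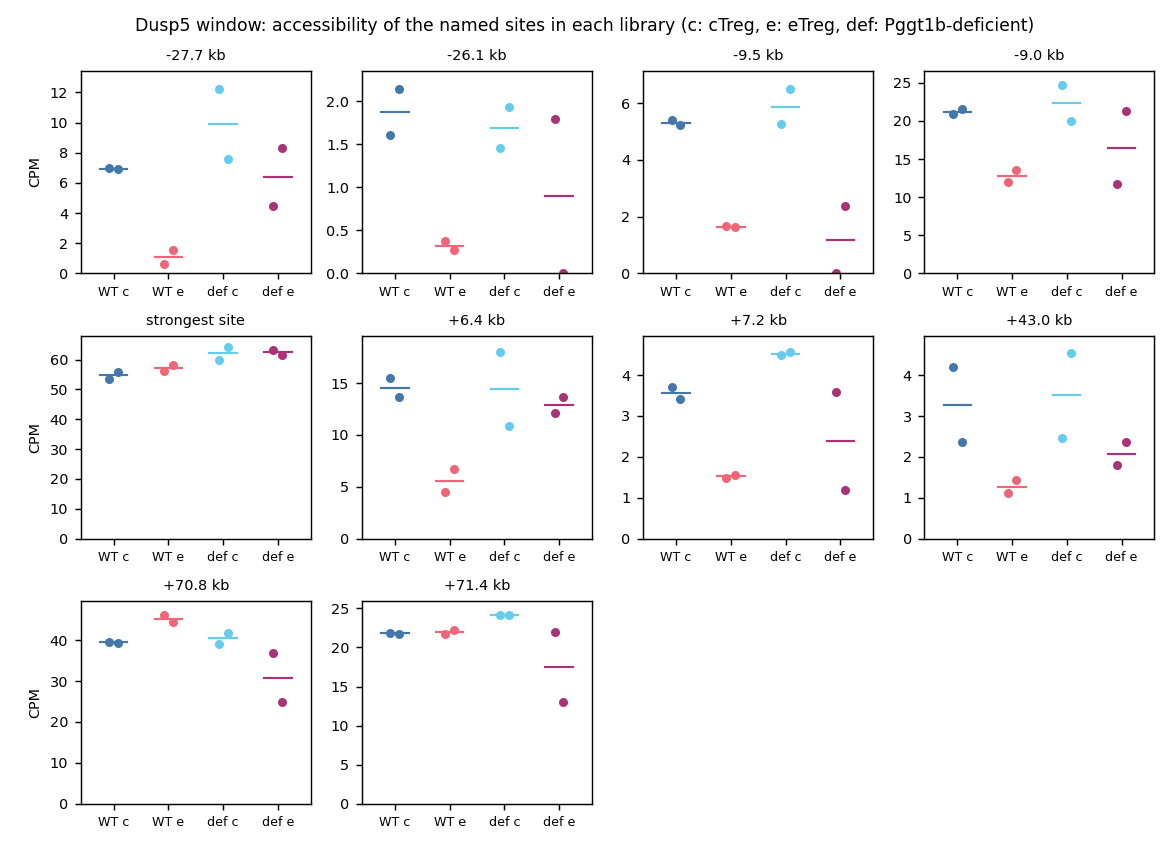
CPM of 10 sites of the Dusp5 window in each library (dots; lines are means of 2), titled by distance from the strongest site. At -27.7 kb and 6.4 kb WT eTreg (WT e, 0.649 to 1.56 and 4.45 to 6.72 CPM) lies below all other libraries, and at the strongest site the 8 libraries lie between 53.6 and 64.2 CPM.

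In Pggt1b-deficient cells, eTreg was lower than cTreg at 11 of 54 tested Dusp6 sites (20.4%) and 1 of 27 Dusp5 sites (3.7%), against a background of 4.52%, and higher at none, against 4.59% (9.12% in either direction; edgeR; 0 higher also at an unadjusted p under 0.05, with DESeq2 and with group weights). Over all 75352 tested sites, 8076 were higher at an unadjusted p under 0.05 (edgeR). The median log2 fold change was -0.67 in the Dusp6 window (-0.56 with the 5 sites without counts in Pggt1b-deficient eTreg at their bounds) and -0.42 in the Dusp5 window, against -0.064 (-0.018 with bounds) over all sites. WT and Pggt1b-deficient subset differences share no library. The 11 Dusp6 calls were all among the 36 WT decreases, that is 30.6% of these and 100% of the former, and 33 of the 36 had a negative sign in Pggt1b-deficient cells, with a median of -0.93 (-0.71 with bounds) against -1.55 in the WT, where these sites were chosen. Of the 9 Dusp5 decreases all had a negative sign in Pggt1b-deficient cells, and the 1 call was among them. Overlap and signs were not counted over all sites, so they cannot be read as particular to these windows. None of the 3 WT increases was called.

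These calls depended on single libraries and on the tool. The Dusp6 count was 11 with edgeR but 4 with DESeq2, 0 with group weights and 3 with the compared libraries alone, and it was 2 without Pggt1b-deficient eTreg replicate 1, 3 without Pggt1b-deficient cTreg replicate 1, 7 without Pggt1b-deficient cTreg replicate 2 or Pggt1b-deficient eTreg replicate 2, and 6 without either WT cTreg library. 3 of the 11 had no count in Pggt1b-deficient eTreg libraries and 34 to 41 in Pggt1b-deficient cTreg libraries. They were at least 1.66-fold lower (-59.3 kb, chr10:98666246-98666403), 1.45-fold lower (-55.7 kb, chr10:98669932-98670024) and 1.37-fold lower (25.5 kb, chr10:98751160-98751206), against a floor of 6 counts over the group.

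**Figure D5:**
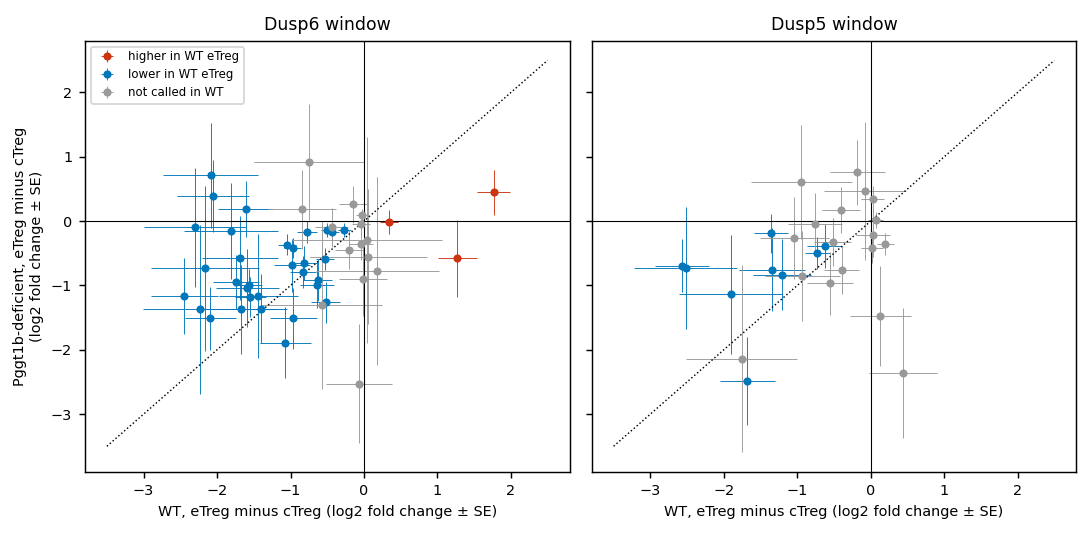
Log2 fold change (± SE) of eTreg against cTreg in WT (x) and Pggt1b-deficient cells (y) at tested sites with counts in all groups (49 Dusp6 sites, 27 Dusp5 sites); the dotted line marks equal values. The 3 sites higher in WT eTreg (red) lie at 0.34 to 1.77 on x and -0.58 to 0.45 on y.

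Loss of Pggt1b left few calls in cTreg cells, at these loci as over all sites. It gave 1 lower site of 54 in the Dusp6 window, the strongest site described above (1.85%, background 1.69% lower), no higher site there (background 0.53%, or 2.21% in either direction), and no call among 27 Dusp5 sites (edgeR). At an unadjusted p under 0.05 (edgeR) there were 4 lower and 0 higher Dusp6 sites and no Dusp5 site. Beside these, 6478 of all 75352 tested sites were lower and 3858 higher at that threshold. DESeq2 called none in either window, and group weights called 2 lower Dusp6 sites. The median log2 fold change was 0.13 in the Dusp6 and 0.10 in the Dusp5 window, against -0.034 over all sites.

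In eTreg cells, Pggt1b deficiency came with 6 higher (11.1%) and 3 lower (5.56%) of 54 Dusp6 sites and 2 higher (7.41%) and 1 lower (3.7%) of 27 Dusp5 sites. The background was 4.66% higher and 6.43% lower (edgeR adjusted p under 0.05). The median log2 fold change was 0.16 in the Dusp6 window and 0.40 in the Dusp5 window, against -0.087 over all sites. With groups without counts at the floor of 6 counts, it was 0.43 for Dusp6 and -0.042 over all sites. At the 5 Dusp6 sites without counts in Pggt1b-deficient eTreg cells, that floor lies above the WT eTreg level (0.321 to 0.914 CPM). These sites then enter as increases although they have no counts, so 0.43 bounds nothing and cannot be read as a rise. This comparison shares the WT eTreg libraries with the WT subset comparison, so the values are set side by side and opposite signs are partly built in. The Dusp6 count of 9 was 4 without Pggt1b-deficient eTreg replicate 1, and the Dusp5 count of 3 was 1 without WT eTreg replicate 1 or without Pggt1b-deficient eTreg replicate 2.

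4 of the 6 higher Dusp6 sites were described above, and the other 2 were chosen after their values were seen. At -91.4 kb, chr10:98634211-98634328 had 4.67 and 4.91 CPM in WT cTreg, 1.39 and 1.7 in WT eTreg, 5.94 and 5.93 in Pggt1b-deficient cTreg, and 3.59 and 10.7 in Pggt1b-deficient eTreg libraries. Its eTreg genotype difference of 2.11 ± 0.48 (edgeR adjusted p = 0.00301) rested on the higher library (0.239 without Pggt1b-deficient eTreg replicate 2). At 3.2 kb, chr10:98728837-98728963 had 3.38 and 2.53 CPM in WT cTreg, 0.556 and 0.815 in WT eTreg, 3.25 and 2.48 in Pggt1b-deficient cTreg, and 4.48 and 2.96 in Pggt1b-deficient eTreg libraries. Values of WT eTreg were below the other 6 libraries there, and the genotype difference was 2.42 ± 0.64 (edgeR adjusted p = 0.0101; 0.0552 without WT eTreg replicate 1 and 0.16 without Pggt1b-deficient eTreg replicate 1), from 15 counts in the Pggt1b-deficient libraries.

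An interaction term tested whether the genotype difference was unequal in eTreg and cTreg cells, and no member was called (edgeR; background 0.957% higher, 0.555% lower and 1.51% in either direction). At an unadjusted p under 0.05 (edgeR) there were 10 of 54 Dusp6 and 4 of 27 Dusp5 sites, beside 11356 of 75352 over all tested sites. DESeq2 and group weights called none. The smallest adjusted p was 0.0771 at the -90.7 kb site of Dusp6 (0.68 ± 0.20) and 0.0895 at the -27.7 kb site of Dusp5 (1.88 ± 0.58). At the WT increases the interaction was -1.32 ± 0.40 at -41.3 kb (edgeR adjusted p = 0.0863), -1.85 ± 0.63 at -51.3 kb (0.129) and -0.35 ± 0.23 at -68.1 kb (0.481). 1 Dusp6 site was called with a filter at a mean count of at least 20, and 1 without Pggt1b-deficient cTreg replicate 1, Pggt1b-deficient eTreg replicate 1 or Pggt1b-deficient eTreg replicate 2. 1 Dusp5 site was called without Pggt1b-deficient cTreg replicate 1 or Pggt1b-deficient eTreg replicate 1. On simulated counts the interaction test recovered 10 of 100 sites changed 2-fold and 57 of 100 changed 4-fold, with 4 false calls.

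Other regions were set beside these windows by the correlation of log2 summed CPM over the 8 libraries, among 3207 tiles of 200 kb with at least 10 sites. Most like the Dusp6 window were 81.6 to 81.8 Mb of chromosome 18 (r = 0.989), 85.6 to 85.8 Mb of chromosome 13 (0.986) and 97.4 to 97.6 Mb of chromosome 6 (0.985). Most like the Dusp5 window were 45.4 to 45.6 Mb of chromosome X (0.987), 87.8 to 88 Mb of chromosome 4 (0.986) and 69.6 to 69.8 Mb of chromosome 18 (0.984). The points share 4 groups and the scaling. Other genes of the ERK pathway were not located on mm9 and were not analysed here.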

How the data were processed

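The authors deposited 1 table of raw counts per open site, whole numbers in 8 columns that each matched 1 sample title. The submitters' processing notes name MACS2 2.1.1, bedtools, SAMtools, Picard 2.9.4 and Trimmomatic 0.36, and the build mm9. As to the aligner, the shift of read ends and any pooling of peaks, these were not given in the sources used here. Whether starts count from 0 or 1 is not stated.

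Counts were fitted in R 4.3.3 with edgeR 4.0.16 (filterByExpr, 75352 sites, TMM, 1 mean per group over 8 libraries, two-sided quasi-likelihood tests, Benjamini-Hochberg within each of 5 contrasts). DESeq2 1.42.0, limma 3.58.1 (voom with group weights) and the other alternatives are given at the end. Standard errors are the size of the log2 fold change divided by the root of F. A group without counts was set to a floor of 3 pairs, 6 counts, since counts often come in pairs; floors and 95% intervals cover counting error only.

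The members and lists were chosen with earlier results of these data known. Sites named are, per window, at most 8 of those called in any contrast, by smallest p, and the 3 strongest; others are said to be chosen after seeing their values. Simulated counts for 75352 sites held 100 sites changed 2-fold and 100 changed 4-fold. From these edgeR recovered 47 and 92 (WT subsets), 14 and 57 (Pggt1b-deficient subsets), 44 and 83 (genotype in cTreg) and 12 and 62 (genotype in eTreg). False calls numbered 1, 11, 0 and 21 in that order. For the Pggt1b-deficient subsets and for genotype in eTreg, false calls were a larger share of all calls than the threshold of 0.05.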

Additional observations from a re-analysis of the deposited data

How the results depend on the processing

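Direction was the same as reported in 1304 of 1304 values of called members under the alternatives, and 231 lost the call. The members were called in these same libraries, so the shared direction is partly built in. Results at sites that an alternative no longer tested are counted neither as kept nor as lost. Of 73 results, 42 remained after thinning and 55 with a mean count of at least 20. By tool, DESeq2 called 26 Dusp6 and 5 Dusp5 sites for the WT subsets, 4 Dusp6 sites for the Pggt1b-deficient subsets and 0 for genotype in cTreg. Group weights gave 0 (Dusp6) and 0 (Dusp5) for the Pggt1b-deficient subsets and 2 Dusp6 sites for genotype in cTreg. Counts divided by 2 gave 3 Dusp6 sites for the Pggt1b-deficient subsets and 2 for genotype in cTreg. The compared libraries alone gave 3 (Dusp6) and 0 (Dusp5) for the Pggt1b-deficient subsets and 2 Dusp6 sites for genotype in cTreg, and omission of both Pggt1b-deficient eTreg libraries, an alternative chosen after seeing the data, also gave 2. Without a filter this count was 0. A mean count of at least 20 gave 1 Dusp6 interaction site. After thinning, 10 Dusp6 and 1 Dusp5 site for the WT subsets and 1 and 0 for the Pggt1b-deficient subsets were called. Genotype in cTreg then gave 0 Dusp6 sites. Genotype in eTreg gave 7 Dusp6 and 3 Dusp5 sites, against 9 and 3 without thinning. The cause of these changes was not tested.

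With the replicate block the Dusp6 count for genotype in cTreg was 0 in place of 1, and no other count of a window moved by over 1.5 times. The replicate numbers do not pair the libraries in the labels, and replicate 1 minus replicate 2 differences correlated between groups at -0.0164 to 0.057 across sites.

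Leaving out 1 library gave, for the Dusp6 window, 22 to 40 (WT subsets), 2 to 10 (Pggt1b-deficient subsets), 0 to 2 (genotype in cTreg), 4 to 9 (genotype in eTreg) and 0 to 1 (interaction) called sites. For the Dusp5 window it gave 4 to 11, 0 to 2, 0 to 0, 1 to 3 and 0 to 1 in that order. The log2 ratio of summed accessibility ranged, for Dusp6, from -0.49 to -0.36 (WT subsets), -0.35 to -0.30 (Pggt1b-deficient subsets), -0.063 to 0.053 (genotype in cTreg) and 0.061 to 0.11 (genotype in eTreg), and for Dusp5 from -0.27 to -0.23, -0.31 to -0.24, 0.11 to 0.13 and 0.05 to 0.12.

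In the central part of the window (the middle 50% of its length), the Dusp6 log2 ratio of sums was -0.27 (WT subsets), -0.24 (Pggt1b-deficient subsets) and -0.018 (genotype in eTreg, reversed from 0.093), and the Dusp5 ratio -0.32 (WT subsets), -0.20 (Pggt1b-deficient subsets) and 0.22 (genotype in eTreg). Without the strongest site, Dusp6 gave -0.38 (Pggt1b-deficient subsets) and 0.15 (genotype in eTreg), and Dusp5 gave -0.34 (WT subsets), -0.35 (Pggt1b-deficient subsets) and 0.095 (genotype in cTreg). Library totals without TMM gave -0.29 for the Dusp5 WT subsets, and DESeq2 size factors 0.14 for Dusp5 genotype in cTreg.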
